A study of Homo sapiens with 20 samples.

Results

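Open chromatin was compared at 6 genes of the MiT transcription factor network, MITF, TFEB, GPNMB, SQSTM1, FLCN and CTSK, in the human liposarcoma line SW872. TFE3 or its relatives are known to act on these genes, and each was represented by a fixed window of the hg19 genome from 33001 to 250001 bp long. All peaks overlapping a window were taken from all 7 deposited lists, which gave 382 of 1407450 peaks. After overlapping or touching peaks of the 7 lists were merged, these made up 92 of 372005 sites, with 25 sites at MITF, 17 at TFEB, 13 at GPNMB, 31 at SQSTM1, 5 at FLCN and 1 at CTSK.

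The 20 libraries were made by ATAC-seq, in which the Tn5 transposase cuts and tags accessible DNA. SW872 cells had been stably transduced with an empty retroviral vector (EV) or with Flag-tagged TAZ4SA or YAP5SA (forms of the co-activators TAZ and YAP whose LATS target serines are replaced by alanine), CAMTA1, TFE3, TAZ-CAMTA1 or YAP-TFE3. The labels name the last construct Yap5SA-TFE3. There were 3 libraries per construct except TFE3, which had 2, and 1 EV library was labelled as a redo. The constructs are expressed from a retroviral vector above whatever TFE3, YAP and TAZ the cells make themselves, and each line is a drug-selected pool rather than a clone. Whether the DNA is bound by TFE3 was not measured by this assay, nor were expression levels. Neither the cell line nor the constructs were checked here.

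The MiT family consists of basic helix-loop-helix leucine zipper factors, among them TFE3, TFEB and MITF, that bind E-box and related M-box sequences as homodimers or heterodimers. When nutrients are plentiful they are held in the cytoplasm through mTORC1, and when released they activate genes of lysosome formation and autophagy. YAP-TFE3 and TAZ-CAMTA1 are the fusion proteins of epithelioid hemangioendothelioma, and YAP-TFE3 keeps the DNA-binding end of TFE3. The comparison with EV asks whether TFE3 or YAP-TFE3 cells had other open sites at these genes than control cells.

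GPNMB is a transmembrane glycoprotein of melanosomes and lysosomes that is used as a marker of TFE3 activity in tumours with TFE3 fusions. Its RefSeq promoter, from 250 bases before to 50 after the annotated start, is shown because it was the only 1 of 11 promoters listed for 5 of the 6 genes that held any of the MiT letters searched. It lies at chr7:23246525-23246824 on the plus strand of GRCh38.p14, and capitals mark the M-box core TCATGTG, read here from the opposite strand.

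GPNMB promoter: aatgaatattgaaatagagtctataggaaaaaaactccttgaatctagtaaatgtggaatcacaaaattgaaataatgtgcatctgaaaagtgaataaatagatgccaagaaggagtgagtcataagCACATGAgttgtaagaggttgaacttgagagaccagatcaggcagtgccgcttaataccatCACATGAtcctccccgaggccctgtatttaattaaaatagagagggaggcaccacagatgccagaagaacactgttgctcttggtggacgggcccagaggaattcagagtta

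The matches begin at bases 128 and 189, counted from 1 at the 5′ end. Of 35116 human promoters in the same table, 2.92% held TCATGTG on either strand. The E-box CACGTG was in 7.26% of all promoters and the longer GTCACGTG in 2.40%, and neither was in the 11 promoters of MITF, TFEB, GPNMB, SQSTM1 and FLCN. CTSK had no entry. In a list of 30 lysosomal and autophagy genes of the MiT network, 17 genes had a promoter in the table, and CACGTG was present in 10 of them (ATP6V0D1, CLCN7, CTSA, CTSD, FNIP1, LAMP1, MCOLN1, NEU1, PPARGC1A and RRAGC). Genes of that list are known for this very motif, so its share is a description of the list. The letters are from GRCh38 and the peaks from hg19, so no peak was placed on a promoter, exon or intron.

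The lists differed in length from 152702 peaks (TAZ4SA) to 236893 (TAZ-CAMTA1), with 171102 in EV, 156421 in TFE3 and 235795 in YAP-TFE3. One list per construct was deposited, with no values per library, so no difference below has a replicate error or a test, and the sequencing depth behind each list is unknown. The peak value used is the area enclosed by each peak in the statistic that the caller computes along the genome. It began at 20 in every list and grows with depth as well as with accessibility. The TFE3 list rests on 2 libraries and the EV list on 3, and whether this alters peak numbers or areas was not tested. A missing peak means a value below the caller's threshold, not closed chromatin.

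In the 6 windows together, EV had 53 peaks, TAZ4SA 36, YAP5SA 51, CAMTA1 55, TFE3 50, TAZ-CAMTA1 69 and YAP-TFE3 68. TFE3 thus had 0.943 times the peaks of EV, beside 0.914 times over the whole lists, and YAP-TFE3 had 1.28 times, beside 1.38 times. In the 500 kb on each side of the windows the ratios were 0.969 for TFE3 and 1.33 for YAP-TFE3. For these 2 constructs the window ratio was thus near that of the list and of the flanks. The window ratio was below both in every construct but TFE3, so also in YAP-TFE3 and TAZ-CAMTA1. The gaps were wider than in these fusions in TAZ4SA (0.679, beside 0.892 and 0.834) and in YAP5SA (0.962, beside 1.35 and 1.24). They were also wider in CAMTA1 (1.04, beside 1.31 and 1.31). The bases covered were 1.08 times those of EV in TFE3 and 1.41 times in YAP-TFE3.

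The single windows departed from that average in both directions. At SQSTM1, which encodes the autophagy receptor p62, YAP-TFE3 had 21 peaks, TAZ-CAMTA1 22, EV and TFE3 14 each, CAMTA1 9, YAP5SA 8 and TAZ4SA 7. The flanks of SQSTM1 held 116 peaks in YAP-TFE3, 118 in EV, 117 in YAP5SA, 103 in TFE3, 135 in CAMTA1, 168 in TAZ-CAMTA1 and 74 in TAZ4SA. YAP-TFE3 was thus above EV in the window and not in the flanks, whereas TAZ-CAMTA1 was above EV in both. The YAP-TFE3 window count was 1.5 times EV, beside 1.38 times over the whole lists, and its bases covered were 1.27 times EV. Single windows were not counted again with equal numbers of peaks per list. At MITF the window counts ranged from 16 in TAZ4SA to 21 in EV and YAP-TFE3, while the flanks held 27 peaks in EV, 27 in TFE3 and 55 in YAP-TFE3. At GPNMB, YAP-TFE3 had the highest count with 11 peaks, beside 9 in CAMTA1, 8 in YAP5SA, 6 in TFE3 and in TAZ-CAMTA1, 5 in EV and 4 in TAZ4SA. The flanks of GPNMB held 95 peaks in EV and in TFE3, 130 in CAMTA1, 121 in YAP5SA, 141 in YAP-TFE3, 150 in TAZ-CAMTA1 and 92 in TAZ4SA. TFEB, the MiT factor that heads the lysosomal programme, had 9 peaks in EV, 8 in TFE3, 11 in YAP-TFE3 and 16 in TAZ-CAMTA1. FLCN, whose product folliculin acts on Rag GTPases to keep MiT factors under mTORC1 control, had 3 or 4 peaks in every list.

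**Figure D1:**
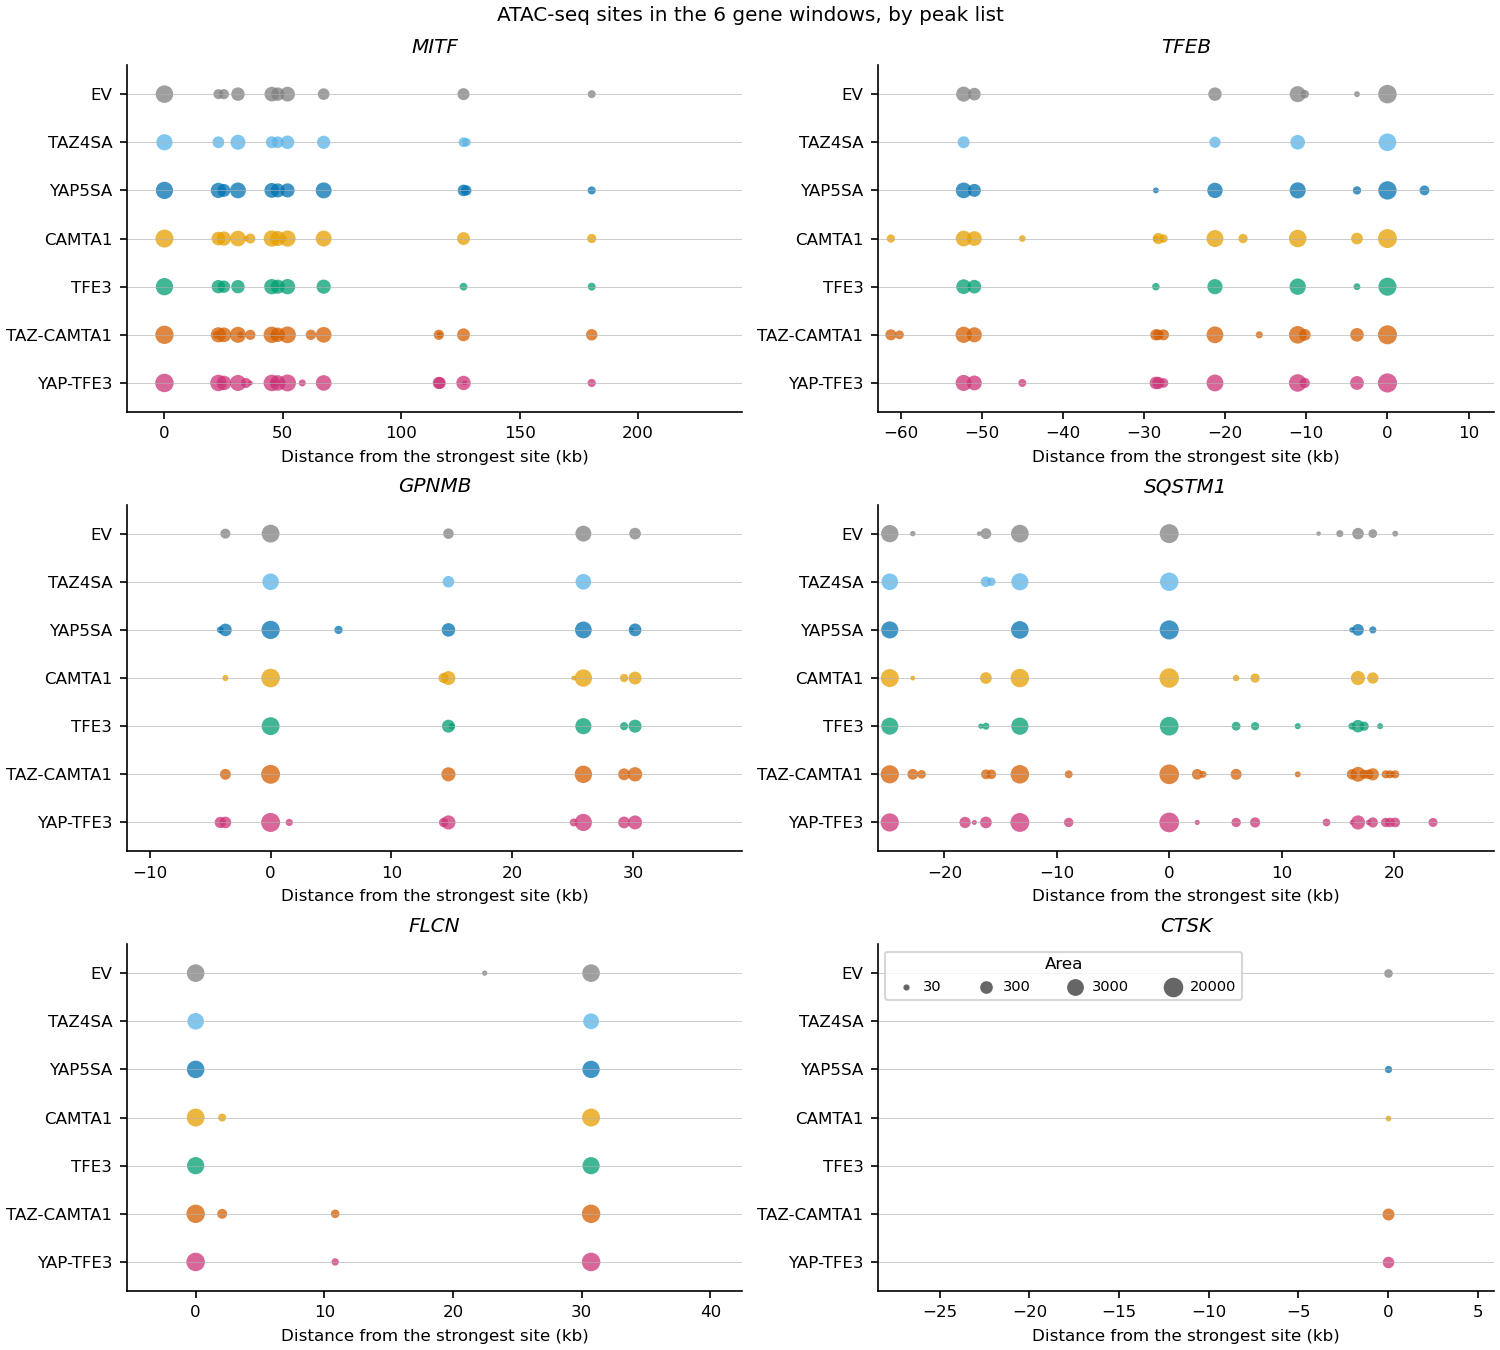
Merged ATAC-seq sites in the 6 windows, placed by distance in kb from the strongest site of each window (x axis) and by peak list (rows), with point size rising with the log of the area. The strongest site at 0 was present in all 7 lists at every gene but CTSK, and the additional sites of YAP-TFE3 and TAZ-CAMTA1 are small points.

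**Figure D2:**
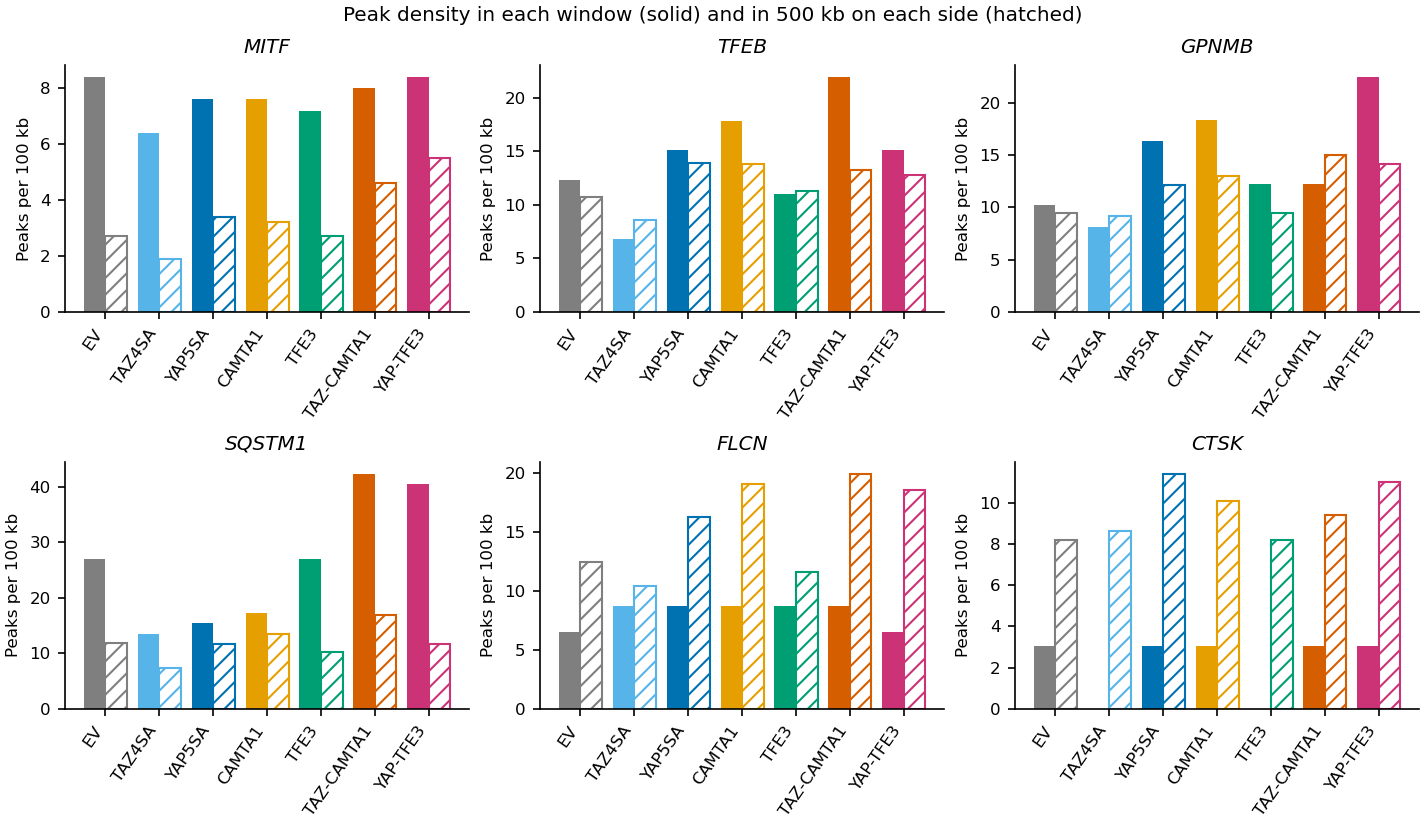
Peaks per 100 kb in each window (solid bars) and in the 500 kb on each side of it (hatched bars) for the 7 lists, with a y axis of its own for each gene. At SQSTM1 the YAP-TFE3 window bar stands at 40.4 and its flank bar at 11.6, beside 26.9 and 11.8 in EV. At MITF the 7 window bars lie between 6.40 and 8.40.

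To ask whether new sites appeared, the peaks with no EV peak on even 1 base were counted. TFE3 had 14 such peaks among 50, or 28% (95% Wilson interval 17.5 to 41.7%), and over the whole TFE3 list the share was 27.6%. YAP-TFE3 had 34 among 68, or 50% (38.4 to 61.6%), beside 50.7% over its whole list. Both shares were near the background, so they are not a result about these genes. The Wilson intervals cover counting error only, and nearby peaks are not independent of each other.

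In the other direction, 14 of the 53 EV peaks, or 26.4% (16.4 to 39.6%), had no TFE3 peak, beside 30.8% of all EV peaks. The 6 EV peaks with no YAP-TFE3 peak were 11.3% (5.29 to 22.6%), beside 19% of all EV peaks. Against each other, 36 of 68 YAP-TFE3 peaks, or 52.9% (41.2 to 64.3%), had no TFE3 peak, beside 47.4% in the whole list. With YAP5SA in place of TFE3 the number was 34 of 68, or 50%, beside 41.3%.

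Among the other constructs, TAZ4SA had 4 of 36 window peaks with no EV peak, or 11.1% (4.41 to 25.3%), beside 33.9% of its whole list. YAP5SA had 11 of 51, or 21.6% (12.5 to 34.6%), beside 47.9%. CAMTA1 had 18 of 55, or 32.7% (21.8 to 45.9%), beside 46.8%. TAZ-CAMTA1 had 31 of 69, or 44.9% (33.8 to 56.6%), beside 51.5%. All 6 of these comparisons use the same EV list. The intervals treat the peaks of a list as independent and hold no error between libraries, so they are no test of a construct.

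The shares moved with the peaks that were kept. When only peaks with a summit −log10 p of 5 or more were kept, the TFE3 share in the windows was 11.1%, beside 18.9% over the whole list, and the YAP-TFE3 share was 35.3%, beside 45.7%. With the same number of peaks kept in each list by summit −log10 p, the TFE3 share stayed at 28%, beside 29.8%. The YAP-TFE3 share was then 26.2%, beside 37.1%, and YAP-TFE3 had 0.875 times the window peaks of EV.

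**Figure D3:**
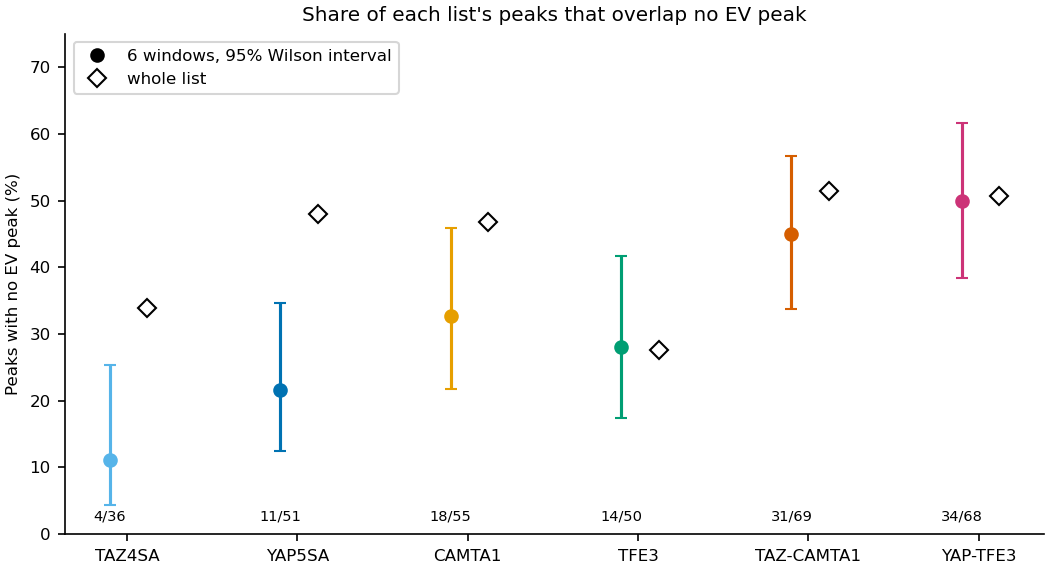
Percentage of each list's peaks that overlap no EV peak, in the 6 windows (filled points with 95% Wilson intervals, counts at the foot) and over the whole list (open diamonds). The TFE3 and YAP-TFE3 points lie at 28% and 50%, next to their diamonds at 27.6% and 50.7%, while the TAZ4SA and YAP5SA points lie below theirs.

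The peaks without an EV peak were weak, in the windows as over the whole lists. They were also short, with median widths in the windows of 161.5 bp beside 482.5 bp in TFE3 and 97.5 bp beside 606 bp in YAP-TFE3. A short peak near the threshold is less likely to overlap an EV peak, so part of the contrast follows from the split. The 14 TFE3 peaks without an EV peak had a median area of 46.5 and a highest area of 77.6, whereas the 36 that met an EV peak had a median of 545. Over the whole TFE3 list the median area was 47.6 without an EV peak and 284 with one, and over the whole YAP-TFE3 list it was 640 with one. For YAP-TFE3 the 34 peaks without an EV peak had a median area of 70.0 and a highest of 291, beside 1332 for the 34 that met one and 68.2 for the peaks without an EV peak in the whole list. The 6 EV peaks that met neither list had a median area of 24.5 and none above 37.5.

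SQSTM1 held 7 of the 14 TFE3 peaks without an EV peak, and MITF, TFEB and GPNMB held 2 each, FLCN 1 and CTSK 0. These were 7 of 14 TFE3 peaks at SQSTM1, 2 of 18 at MITF, 2 of 8 at TFEB, 2 of 6 at GPNMB and 1 of 4 at FLCN. Over the whole TFE3 list the share was 27.6%. In the other direction, 8 of the 14 EV peaks at SQSTM1 had no TFE3 peak, beside 30.8% of all EV peaks. Of the TFE3 peaks without an EV peak, 4 lay inside a merged site in which EV had another peak. Among them were the strongest, with 77.6 at chr17:17108171-17108436 in the strongest FLCN site, both MITF peaks and 1 at TFEB. The strongest at SQSTM1 lay at chr5:179264351-179264664, with an area of 71.9 in TFE3, 69.3 in TAZ-CAMTA1 and no peak in the other 5 lists. The next, at chr5:179252993-179253250, had 62.4 in TFE3, 77.4 in YAP-TFE3, 144 in TAZ-CAMTA1 and 32.0 in CAMTA1. The next after it, at chr5:179254694-179254923, had 53.0 in TFE3, 103 in YAP-TFE3 and 74.0 in CAMTA1. Each of these 3 sites thus also had a peak in at least one list of a construct without TFE3. This did not hold for all weaker ones, which were added after their values were seen. The SQSTM1 sites at chr5:179230375-179230449 (24.5) and chr5:179265879-179265985 (28.4) were in the TFE3 list alone, with areas near the lowest of 20. In all windows 3 of 92 sites were in the TFE3 list alone, beside 1519 of 372005 in the series.

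At TFEB the leading site of this kind was chr6:41673697-41673896, 28557 bp from the strongest site of the window. Its area was 42.4 in TFE3, 291 in YAP-TFE3, 166 in TAZ-CAMTA1, 27.9 in CAMTA1 and 27.7 in YAP5SA, with no peak in EV or TAZ4SA. Within 1 kb of it YAP-TFE3 had further peaks with areas of 239 and 81.8, at sites where CAMTA1 had 156 and 55.2 and TAZ-CAMTA1 had 123 and 140, and where TFE3 had none. YAP-TFE3 was the highest of the 7 lists at the first site and at the site with 239, and TAZ-CAMTA1 at the remaining one.

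At GPNMB the site at chr7:23316067-23316289 had 50.5 in TFE3, 203 in YAP-TFE3, 208 in TAZ-CAMTA1 and 52.3 in CAMTA1. A peak of 30.7 at chr7:23301886-23301951 was in the TFE3 list alone. YAP-TFE3 also had 157 at chr7:23282689-23282817, 4167 bp from the strongest site, where YAP5SA had 34.0 and the other lists had no peak. Its peak at chr7:23301185-23301288 was weaker, with 72.9 beside 101 in CAMTA1.

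SQSTM1 held 12 of the 34 YAP-TFE3 peaks without an EV peak, among 21 YAP-TFE3 peaks there. MITF, the family member that directs melanocyte and osteoclast genes, held 11, also among 21. Over the whole YAP-TFE3 list the share was 50.7%. In the other direction, 4 of 14 EV peaks at SQSTM1 and 0 of 21 at MITF had no YAP-TFE3 peak, beside 19% of all EV peaks. The strongest at MITF were a pair at chr3:69904680-69904843 and chr3:69905006-69905310, 115878 and 116274 bp from the strongest site of the window. They had 245 and 218 in YAP-TFE3 and 106 and 27.4 in TAZ-CAMTA1. No other list had a peak at either. A further one, at chr3:69823179-69823460, had 99.2 in YAP-TFE3 and 24.2 in CAMTA1. In 3 of the 34 cases the peak lay inside a merged site in which EV had another peak. Among these was a MITF peak of 165 at chr3:69836212-69836455.

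At SQSTM1 the strongest YAP-TFE3 peak without an EV peak had an area of 159 at chr5:179228906-179229096, a site of the YAP-TFE3 list alone. The site at chr5:179266668-179266931 had 83.0 in YAP-TFE3 and 49.8 in TAZ-CAMTA1. FLCN had a single YAP-TFE3 peak of this kind, with an area of 40.4 at chr17:17120206-17120335, where TAZ-CAMTA1 had 58.0. The EV peaks with no counterpart in TFE3 or YAP-TFE3 were as weak, with 24.2 at FLCN and 24.8, 21.8 and 37.5 at the 3 strongest SQSTM1 sites of this kind.

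The strongest site of each window was then compared across the lists. At SQSTM1 it lay at chr5:179245048-179249283 and had an area of 13050 in EV, 8789 in TAZ4SA, 14405 in YAP5SA, 19136 in CAMTA1, 10998 in TFE3, 21398 in TAZ-CAMTA1 and 22371 in YAP-TFE3. Its leading peak was within the top 0.352% of EV peaks, the top 0.290% of TFE3 peaks and the top 0.259% of YAP-TFE3 peaks. By area it was therefore among the strongest sites of all 3 lists, although its summit −log10 p in EV, 11.8, was below the 13.4 of the strongest TFEB site and the 12.3 of the strongest MITF site.

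At TFEB the strongest site, chr6:41700562-41704145, had 9611 in EV, 5113 in TAZ4SA, 8422 in YAP5SA, 13002 in CAMTA1, 6922 in TFE3, 13709 in TAZ-CAMTA1 and 14849 in YAP-TFE3. At GPNMB, chr7:23285533-23288307, the areas were 6013 in EV, 2555 in TAZ4SA, 8005 in YAP5SA, 10081 in CAMTA1, 6288 in TFE3, 12529 in TAZ-CAMTA1 and 13392 in YAP-TFE3. At MITF, chr3:69787532-69790236, they were 4897, 2103, 4062, 6472, 4178, 8301 and 9165 in the same order of lists. YAP-TFE3 was the highest and TAZ4SA the lowest list at all of these sites, and they also had the highest and lowest area ratio to EV over shared sites of the whole series, 2.45 and 0.639.

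FLCN had a pair of sites of nearly equal strength, the weaker of which was added after its values were seen. The one at chr17:17108130-17110725 had 5161 in EV, 4056 in TFE3 and 9640 in YAP-TFE3, and the one 30726 bp away at chr17:17138596-17141710 had 5107 in EV, 3868 in TFE3 and 9857 in YAP-TFE3. The other 4 lists ranged from 2620 to 8730 at the former and from 1593 to 9352 at the latter.

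CTSK encodes cathepsin K, a lysosomal collagen-degrading protease of osteoclasts. Its window held 1 weak site, at chr1:150785686-150785862, with an area of 58.6 in EV, 39.3 in YAP5SA, 26.6 in CAMTA1, 215 in TAZ-CAMTA1 and 179 in YAP-TFE3. TFE3 and TAZ4SA had no peak anywhere in the window. Both fusion lists were above EV in deposited area, but after scaling the YAP-TFE3 ratio to EV was 1.25 and the TAZ-CAMTA1 ratio 1.53. The flanks of CTSK held 82 peaks in EV and in TFE3, so the region around it was not poor in peaks.

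**Figure D4:**
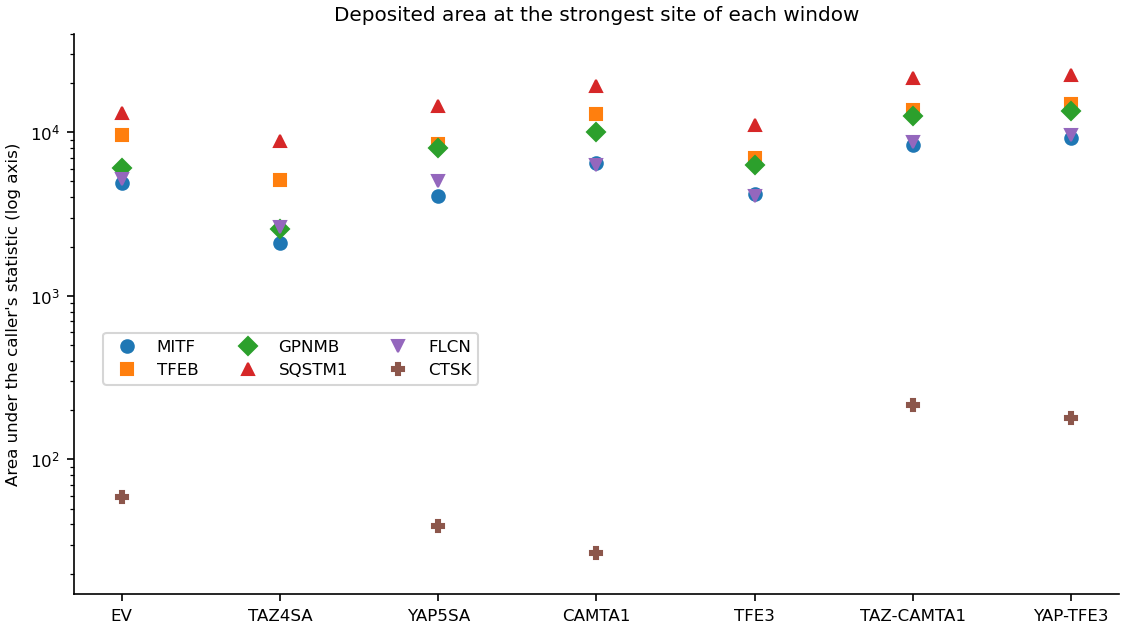
Deposited area (log axis) at the strongest site of each of the 6 windows in the 7 lists, 1 point per gene and list, with no point where a list has no peak. SQSTM1 is the highest gene in every list, from 8789 in TAZ4SA to 22371 in YAP-TFE3, and CTSK has no point in TAZ4SA or TFE3.

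To put the lists on one scale, each area ratio to EV was divided by the median ratio over the 60373 sites held by all 7 lists, which was 1.07 for TFE3 and 2.45 for YAP-TFE3. Over the strongest 10% of those sites by median area, 6038 in number, the median ratios were lower, 0.830 and 1.77. The scaled ratio of a strong site therefore depends on which sites set the scale, and both are given here for the strongest sites. At the CTSK site the YAP-TFE3 ratio of 1.25 became 1.73 on the second scale.

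With the scale from all shared sites, the strongest site had a TFE3 ratio of 0.67 at TFEB, 0.74 at FLCN, 0.79 at SQSTM1, 0.80 at MITF and 0.98 at GPNMB. With the scale from the strongest 10% these became 0.87, 0.95, 1.02, 1.03 and 1.26, so that the direction turned at SQSTM1, MITF and GPNMB. For YAP-TFE3 the ratios were 0.63 at TFEB, 0.70 at SQSTM1, 0.76 at FLCN, 0.76 at MITF and 0.91 at GPNMB, and on the other scale 0.87, 0.97, 1.05, 1.06 and 1.26, so that it turned at FLCN, MITF and GPNMB. None reached 2-fold on either scale. The summed scaled area of the 6 windows was 0.843 times EV in TFE3 and 0.871 times in YAP-TFE3, within a range of 0.807 to 0.871 over all 6 lists. In the SQSTM1 window alone it was 0.762 times EV in TFE3 and 0.782 times in YAP-TFE3.

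Of the 92 sites, 27 had a peak in both TFE3 and EV. On the scale from all shared sites, 5 of them, or 18.5%, were at least 2-fold higher in TFE3, beside 17.5% over all sites with a peak in both lists, and 2, or 7.41%, were at least 2-fold lower, beside 10.2%. YAP-TFE3 and EV shared 32 sites, of which 6, or 18.8%, were at least 2-fold higher, beside 21.7%, and 1, or 3.13%, was at least 2-fold lower, beside 13.4%. The median ratio was 1.08 in TFE3 and 1.12 in YAP-TFE3, beside 1.02 over all sites for each. These counts were near the background, apart from the lower sites in YAP-TFE3, which rest on a single site.

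The sites at least 2-fold higher lay in the MITF, TFEB and GPNMB windows, away from the strongest site, and 5 of them were past the limit in both TFE3 and YAP-TFE3, comparisons that share the EV list. The largest was at MITF, chr3:69811126-69812211, 22784 bp from the strongest site. Its area was 94.5 in EV, 198 in TAZ4SA, 1181 in YAP5SA, 497 in CAMTA1, 436 in TFE3, 1170 in TAZ-CAMTA1 and 2450 in YAP-TFE3. Scaled, this was 4.33 times EV in TFE3 and 10.6 times in YAP-TFE3, and 3.28, 9.48, 2.54 and 5.17 times in TAZ4SA, YAP5SA, CAMTA1 and TAZ-CAMTA1. YAP-TFE3 and YAP5SA were the highest lists, and EV was the lowest of all 7.

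A second MITF site at chr3:69813710-69814269 had 102 in EV, 351 in YAP5SA, 675 in CAMTA1, 263 in TFE3, 860 in TAZ-CAMTA1 and 824 in YAP-TFE3, with no TAZ4SA peak. The scaled ratio was 2.41 in TFE3 and 3.29 in YAP-TFE3, and from 2.60 to 3.51 in YAP5SA, CAMTA1 and TAZ-CAMTA1. A further site, at chr3:69855725-69856516, had 187 in EV, 396 in TAZ4SA, 1780 in YAP5SA, 1791 in CAMTA1, 657 in TFE3, 1544 in TAZ-CAMTA1 and 1434 in YAP-TFE3. There the ratio was 3.28 in TFE3 and 3.13 in YAP-TFE3, while YAP5SA had 7.21, CAMTA1 4.61, TAZ-CAMTA1 3.44 and TAZ4SA 3.31. At all 3 MITF sites EV was the lowest list that had a peak, and constructs with no part of TFE3 also passed 2-fold. These sites, like the next at TFEB and GPNMB, were named because TFE3 and YAP-TFE3 were both past 2-fold over EV. A low EV area follows from that choice, and the ratios of all constructs are divided by it.

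At TFEB the site at chr6:41680358-41681808 had 441 in EV, 155 in TAZ4SA, 1266 in YAP5SA, 3355 in CAMTA1, 1144 in TFE3, 2954 in TAZ-CAMTA1 and 3085 in YAP-TFE3. The scaled ratios were 2.43 in TFE3, 2.86 in YAP-TFE3, 3.67 in CAMTA1, 2.80 in TAZ-CAMTA1, 2.18 in YAP5SA and 0.55 in TAZ4SA. At GPNMB the site at chr7:23301536-23301743, 14720 bp from the strongest, had 117 in EV, 183 in TAZ4SA, 461 in YAP5SA, 567 in CAMTA1, 351 in TFE3, 626 in TAZ-CAMTA1 and 642 in YAP-TFE3. All 6 scaled ratios lay between 2.23 and 2.98 there, with 2.81 in TFE3 and 2.24 in YAP-TFE3.

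The remaining sites past the limit were singled out after their values were seen. At TFEB, chr6:41698274-41698917, 3758 bp from the strongest site, had 27.7 in EV, 35.0 in TFE3, 531 in YAP-TFE3 and 474 in TAZ-CAMTA1, with scaled ratios of 1.18 in TFE3, 7.84 in YAP-TFE3 and 7.15 in TAZ-CAMTA1. CAMTA1 had 196 there, 3.41 times EV, and YAP5SA 53.6, 1.47 times. The fusion lists and CAMTA1 were therefore past 2-fold at this site and TFE3 and YAP5SA were not. The EV area there lay near the lowest area of 20, so all of its ratios rest on a weak EV peak. The sites lower in TFE3 were chr3:69914906-69915463 at MITF, with 222 in EV and 44.8 in TFE3, a ratio of 0.19, and chr5:179230525-179231195 at SQSTM1, with 130 and 36.7, a ratio of 0.26. YAP-TFE3 had ratios of 1.35 and 0.61 at them, and TAZ-CAMTA1 0.64 and 0.28. The TFE3 peaks at both sites were weak as well. The site lower in YAP-TFE3 was chr3:69969227-69969412 at MITF, with 47.9 in EV and 51.5 in YAP-TFE3, a scaled ratio of 0.44 at deposited areas that were nearly equal.

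**Figure D5:**
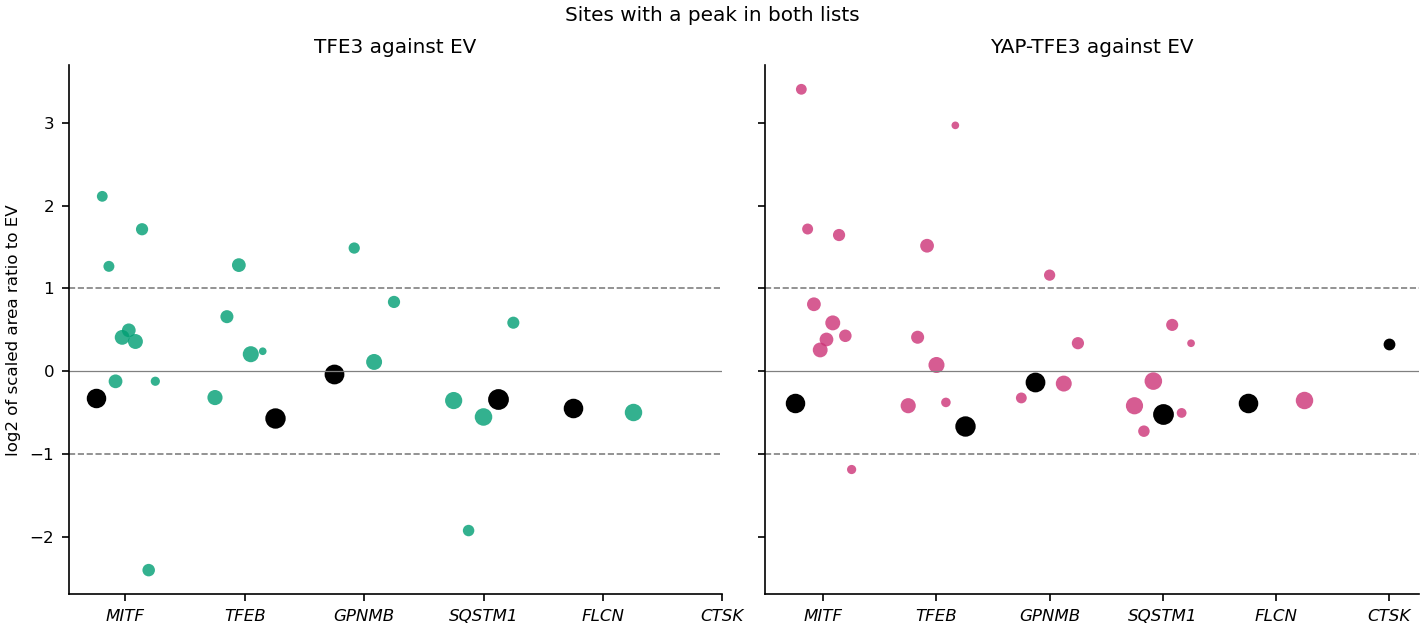
Log2 of the scaled area ratio to EV at sites with a peak in both lists, for TFE3 (left, 27 sites) and YAP-TFE3 (right, 32 sites), by gene, in order of position within each gene, with point size rising with the EV area, the strongest site of each window in black and dashed lines at the 2-fold limit. The black points lie within the dashed lines in both panels, and the points above the upper line belong to MITF, TFEB and GPNMB.

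All 7 lists held 20 of the 92 sites, or 21.7%, beside 16.2% of all 372005 sites, and 32 sites were in 1 list. The strongest site carried from 50.1% (FLCN) to 73.6% (GPNMB) of the EV area of its window where there was more than 1 site. Several windows take in neighbours. In GRCh38 the genes within 10 kb include MGAT4B, LTC4S and MRNIP at SQSTM1, PGC at TFEB, PLD6 and COPS3 at FLCN and ARNT at CTSK, so a peak of a window need not belong to the gene that names it.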

How the data were processed

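Per the study's methods, ATAC-seq reads of SW872 cells were adapter-trimmed with NGmerge, aligned to GRCh37/hg19, and peaks called with Genrich in ATAC mode, with PCR duplicates, blacklisted regions and mitochondrial reads removed. The methods describe calls per replicate, but the authors deposited 1 list per construct, and how replicates were combined is not given in the sources used here. The deposited values used were the signal of each peak (the area it encloses in the caller's statistic) and the summit −log10 p. Depth is unknown and no test was possible. The last peaks on chromosome 1 lie past the end of the GRCh38 chromosome, so the peaks are not on that build.

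Peaks overlapping the windows by 1 bp were taken with pandas 2.3.3, merged into sites, and compared with EV. A site's area is the sum over a list's peaks in it. Site names in the text follow a rule: the largest median area over 7 lists (missing as 0), up to 3 sites gained or lost against EV, and sites past 2-fold in both TFE3 and YAP-TFE3, with exceptions named where they occur. Overlaps were checked against bedtools 2.31.1 and ratios tested on simulated data. The members and lists were chosen with earlier results of these data known. A count of sites in both TFE3 and YAP-TFE3 but not EV was planned and is not given, because both comparisons share the EV list.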

Additional observations from a re-analysis of the deposited data

How the results depend on the processing

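No paired analysis was possible because each list stands for all libraries of its construct, and for the same reason no replicate could be left out. Of 70 values under alternative settings, 44 stayed within the counting interval or within 1.5 times the main count. When peaks under a summit −log10 p of 4 were removed, the share of TFE3 peaks without EV was 16.7%, beside 23.0% over the whole list. That of EV peaks without YAP-TFE3 was 4.76%, beside 16.7%, and no site was 2-fold lower (0 in TFE3, 0 in YAP-TFE3). With a minimum of 5, the TFE3 and YAP-TFE3 shares without EV were 11.1% and 35.3%, beside 18.9% and 45.7%. The EV shares without TFE3 and YAP-TFE3 were 15.4% and 0%, beside 16.9% and 6.71%, and again 0 sites were lower in either. With equal numbers of peaks, 152702 per list, the YAP-TFE3 share was 26.2%, beside 37.1%, its window peaks were 0.875 times EV and 0 sites were lower. With windows narrowed by 10 kb, 15.4% of EV peaks had no TFE3 peak, beside 30.8%, and 1 site was lower in TFE3. Widening the windows by 10 kb moved no value this far. Requiring an overlap of 50% of both peaks raised the 4 shares to 50% (TFE3 without EV), 70.6% (YAP-TFE3 without EV), 52.8% (EV without TFE3) and 62.3% (EV without YAP-TFE3), and the whole-list shares rose with them, to 49.3%, 69.6%, 53.7% and 58.1%. With areas as deposited, 20 sites were at least 2-fold higher in YAP-TFE3 and 0 lower, and the share over all sites was not computed. With the summit −log10 p in place of the area, 0 sites passed 2-fold in either direction in TFE3 or YAP-TFE3. The summit −log10 p spans a far narrower range than the area, so 2-fold is a stricter limit on it. The scale from the strongest 10% of shared sites was an alternative chosen after seeing the data. With it, 7 sites were at least 2-fold higher in TFE3 and 9 in YAP-TFE3, and 2 and 0 were lower. For none of the alternative counts of 2-fold sites was the share over all sites computed. Counting sites in place of peaks, also added later, gave TFE3 and YAP-TFE3 shares without EV of 27.0% and 49.2%, beside 24.3% and 50.1%. The sites past 2-fold in both TFE3 and YAP-TFE3 stayed past it under each area scaling, but this outcome was fixed in advance. These sites were higher than EV, and both other scalings divide by less than the main divisors of 1.07 and 2.45. Their ratios could only rise.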
